A study of Mus musculus with 15 samples.

Results

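The comparison described here is between mouse embryonic stem (ES) cells kept in a MEK inhibitor together with a GSK3 inhibitor and the same cells kept in the MEK inhibitor alone. Arrays were chosen by their titles, 3 of the 2i group and 3 of the PD03 group, which makes 6 of the 15 arrays of the series, and all 19937 genes with a probe set of their own were tested. The cells of every group belong to a single line adapted to culture with both inhibitors, in which Ctnnb1, which encodes beta-catenin, holds a knocked-in biotin and 3xFLAG tag, and which also carries the biotin ligase BirA. The 2i group held CHIR99021 at 3 µM and PD0325901 at 1 µM after 24 h without LIF. The PD03 group held PD0325901 at 1 µM after 24 h without CHIR99021 and LIF. Groups set beside them were CHIR (CHIR99021 at 3 µM, with PD0325901 and LIF absent for 24 h), DMSO (all of these absent for 24 h) and 2iLIF (both inhibitors and LIF kept on throughout), each with 3 arrays. The series asks how such cells respond at the level of the transcriptome to either inhibitor. A gene is called higher or lower for 2i relative to PD03, and "rose" and "fell" are used in that sense, not for a course over time. Both groups came from cells grown with CHIR99021, so the comparison is between its continued presence and its absence for 24 h.

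GSK3 is a kinase that, in a complex with Axin and Apc, marks beta-catenin for destruction. When GSK3 is inhibited, beta-catenin accumulates, and in ES cells it relieves repression by the DNA-binding protein Tcf7l1 and can activate genes through other TCF/LEF factors. MEK activates ERK, whose signal moves ES cells from the naive state towards the formative state, and inhibitors of both kinases together hold the cells in the naive state.

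Values are log2 RMA signals, in which a difference of 1 is a doubling of the signal. They ranged from 3.74 to 13.99, and array medians lay between 6.98 and 7.06. Correlations over all genes were 0.9989 to 0.9993 between arrays of a group and 0.9958 to 0.9964 between a 2i and a PD03 array. ES cell markers (Pou5f1, Sox2, Nanog, Zfp42, Sall4 and Dppa5a) averaged 11.9 on each of the 6 arrays, and 0 of 6 passed the test. Endoderm, trophoblast and fibroblast markers averaged between 6.09 and 6.77, and 0 of 17 passed. Primitive streak markers averaged 7.18 to 7.25 on 2i arrays and 7.06 to 7.10 on PD03 arrays, and 1 of 4 (Eomes) was higher. Of 5 neural markers 3 were lower in 2i, which is described with the neural genes below. The labels do not say whether replicates were separate cultures, so the spread that p-values rest on may be only technical.

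Adding CHIR99021 to PD0325901 went with differences in many genes, most of them small. With limma and a Benjamini-Hochberg adjusted p under 0.05, 3891 genes (19.5% of those tested) differed, of which 2008 (10.1%) were higher and 1883 (9.44%) lower. Of these, 2246 differed by less than 0.25 on the log2 scale, 1232 by 0.25 to 0.5, 350 by 0.5 to 1, 56 by 1 to 2 and 7 by 2 or more. The standard error of a difference had a median of 0.0509. In all, 63 genes (0.316%) were called at 2-fold or more, 44 higher (0.221%) and 19 lower (0.0953%). With each array also centred on its median the split was 2307 higher against 1470 lower. Array medians differed by -0.0222 between the groups (2i minus PD03), and that setting takes this shift out of every difference.

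The gene with the highest increase was Pglyrp1, which encodes a peptidoglycan recognition protein of innate immunity. Its arrays read 10.63, 10.64 and 10.64 in 2i and 7.58, 7.54 and 7.78 in PD03. The difference was 3.00 ± 0.10 (SE, n = 3 against 3; limma adjusted p = 9.63e-12), or 8-fold. Plagl1, an imprinted zinc finger transcription factor gene, read 10.26, 10.23 and 10.06 in 2i and 7.64, 7.71 and 7.59 in PD03. It rose by 2.54 ± 0.10 (5.8-fold). For both genes every 2i array lay more than 2 units above every PD03 array.

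Gmnc, a relative of geminin needed to form multiciliated cells, followed at 7.51, 7.60 and 7.54 against 5.28, 5.27 and 5.54, a rise of 2.19 ± 0.08. Its PD03 values were below 6, a range near background on these arrays, where RMA compresses differences. Spic, an ETS family transcription factor that marks the naive state, read 8.32, 8.38 and 8.07 in 2i against 6.03, 6.14 and 6.21 in PD03 (2.13 ± 0.10). Ctsc, the lysosomal protease cathepsin C, rose by 2.11 ± 0.07, from a PD03 mean of 7.80 to a 2i mean of 9.91. Rerg, a small GTPase related to Ras, rose by 2.02 ± 0.07, and Ntn1, the secreted guidance cue netrin-1, by 1.87 ± 0.05. The remaining 5 of the 12 highest were Ct55, a cancer/testis gene (1.78), Trh, the precursor of thyrotropin-releasing hormone (1.67), Rasgrp1, an exchange factor that activates Ras (1.66), Epp13 (1.62) and Dnah8, an axonemal dynein heavy chain (1.60). The naming rule required that the arrays of the groups do not overlap, as they did not for 3848 of the 3891 genes called (19.3% of those tested). Among all genes tested, called or not, 7139 (35.8%) had no overlap. Non-overlap in a called gene, here and where stated below, therefore adds little to its call.

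The largest decrease was in Otx2, a homeobox factor that directs the exit towards the formative epiblast. Its arrays read 8.84, 9.04 and 8.97 in 2i and 11.00, 10.97 and 11.04 in PD03. It fell by 2.05 ± 0.06 on the log2 scale (4.15-fold; adjusted p = 9.63e-12). Efnb2, a transmembrane ligand of Eph receptors, read 7.94, 7.98 and 7.995 against 9.75, 9.72 and 9.75 and fell by 1.77 ± 0.09. The small GTPase gene Rhob was at 7.30, 7.24 and 7.30 against 8.89, 8.69 and 8.95 and fell by 1.56 ± 0.07. Every 2i array of these genes was below every PD03 array by more than 1 unit.

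AU015836, left out of the named genes for its accession-like symbol, was at -1.57. Next came Lrp2, the endocytic receptor megalin (-1.51 ± 0.05), Id2, which blocks helix-loop-helix factors from binding DNA (-1.47 ± 0.10), Cdh3, P-cadherin (-1.38 ± 0.04), and Pde1b, a phosphodiesterase of cyclic nucleotides (-1.34 ± 0.07). Tmem154, a membrane protein gene, was at -1.32 on the probe set used and at -0.87 on its other one. The list of 12 ended with Phf19, an accessory subunit of Polycomb repressive complex 2 (-1.19), the neural homeobox gene Pax6 (-1.12), the forkhead gene Foxi3 (-1.11) and the arginine methyltransferase gene Prmt8 (-1.10). The calls of all 24 genes were the same under each of the 12 alternative settings tried.

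**Figure D1:**
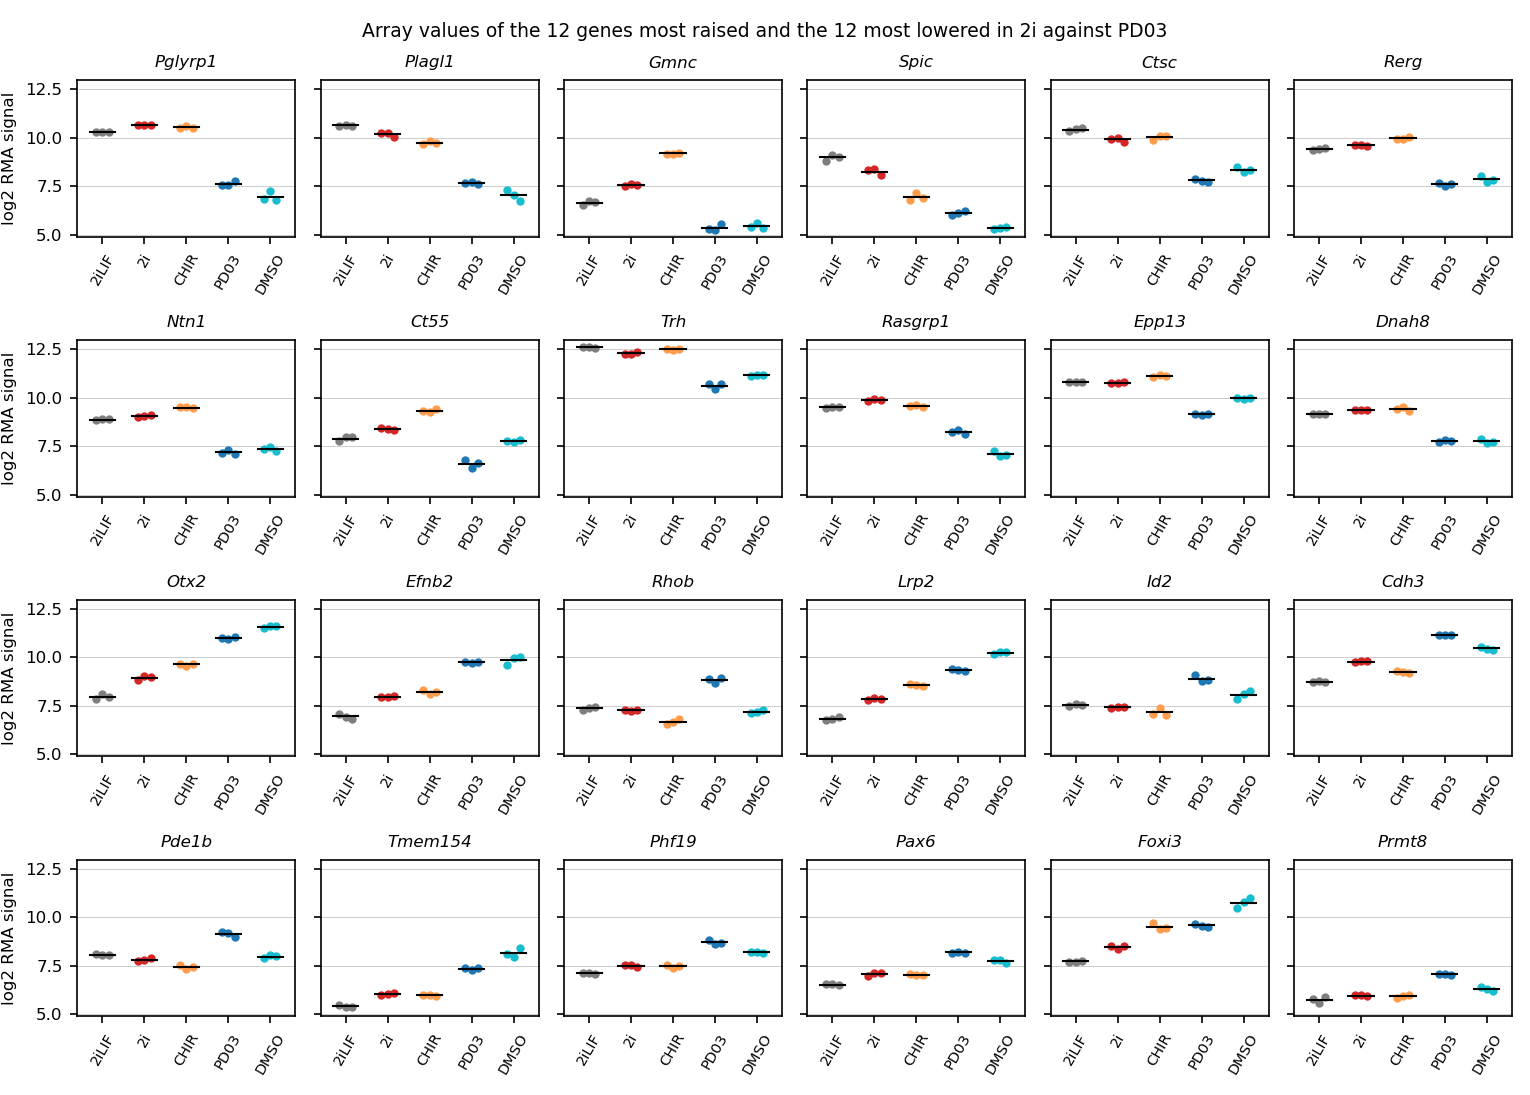
Array values (log2 RMA signal, y axis) of the 12 genes most raised and the 12 most lowered in 2i against PD03, leaving out predicted genes and accession-like symbols (AU015836), in each of the 5 groups on the x axis; points are the 3 arrays of a group and bars their mean. The 2i points of Pglyrp1 lie at 10.63 and 10.64 and its PD03 points between 7.54 and 7.78, while those of Otx2 lie between 8.84 and 9.04 and between 10.97 and 11.04.

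Among genes called at 2-fold or more, PD03 often had the most extreme mean of the 5 groups. The genes were chosen for a PD03 mean far from the 2i mean, which favours this, so the counts are a description. PD03 had the lowest mean for 30 of the 44 higher genes and the highest for 13 of the 19 lower genes. Rhob is an example: its means were 8.84 in PD03 and 7.21 in DMSO, and 7.28 in 2i, 6.69 in CHIR and 7.38 in 2iLIF. Cdh3 had means of 11.16 in PD03, 10.46 in DMSO, 9.79 in 2i and 8.75 in 2iLIF. Otx2 instead was highest in DMSO (11.58), and its means in PD03, 2i and 2iLIF were 11.00, 8.95 and 7.98. LIF on top of 2i passed the test for 30 of the 44 higher genes, 12 of them higher and 18 lower with LIF. It passed for 16 of the 19 lower genes, 3 of them higher and 13, Otx2 among them, lower with LIF.

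Direct targets of Wnt/beta-catenin signalling were considered next. Over all genes 10.1% were higher and 9.44% lower. The counts of this list and of those that follow are to be read beside these shares. Of 20 measured targets 6 were higher and 1 lower, 30% and 5% of the list (2 lower without 2i replicate 2 or with the filter on low values, 3 with only the compared arrays), with a median of 0.07 against 0.00895 for all genes. Axin2, a scaffold of the destruction complex and a feedback target of the pathway, read 9.18, 9.24 and 9.14 in 2i and 7.63, 7.63 and 7.72 in PD03, a rise of 1.53 ± 0.08 (adjusted p = 1.99e-09). Tnfrsf19, the receptor Troy, read 8.72, 8.61 and 8.55 against 7.19, 7.22 and 7.25 (1.41 ± 0.04). For both genes the arrays of the groups were more than 1 unit apart. The transcription factor genes Sp8 (0.33 ± 0.06), Cdx1 (0.32 ± 0.06) and Sp5 (0.31 ± 0.07) and the ubiquitin ligase gene Znrf3 (0.29 ± 0.06), which removes Wnt receptors from the cell surface, rose by much less. Both PD03 and 2i means of Sp8, 5.91 and 6.23, were near background.

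Lef1, on the same list, moved the other way. This TCF/LEF factor read 8.54, 8.61 and 8.56 in 2i and 9.47, 9.51 and 9.48 in PD03 and fell by 0.92 ± 0.05. The 13 targets that did not pass, among them Lgr5, Nkd1, Notum, Rnf43, Dkk1, Ccnd1 and Myc, lay between -0.15 and 0.12.

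Sp5 is shown here with its promoter because it holds the motif of TCF/LEF factors more than once. The motif was searched as CTTTGAT, with CTTTGAA, with CTTTGTA and with CTTTGTT as further forms, on both strands of the 250 bases before each gene's start, in RefSeq sequences of GRCm38.p6. The Sp5 window, chr2:70474673-70474922 on the plus strand, has the matches in capitals, at 222 and 104 bases before the start:
Sp5: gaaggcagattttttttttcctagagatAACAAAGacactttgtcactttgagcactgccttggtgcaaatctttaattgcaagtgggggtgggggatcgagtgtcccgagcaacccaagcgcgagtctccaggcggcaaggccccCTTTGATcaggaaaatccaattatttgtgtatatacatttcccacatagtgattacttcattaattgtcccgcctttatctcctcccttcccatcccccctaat
A match is a description of letters, not of binding. A gene was counted if the window before any of its RefSeq starts matched, so genes with more starts had more windows. By this count the motif stood before 14.9% of all 15562 genes with a promoter sequence. The share was 14.4% for genes that were higher and 12.3% for genes that were lower. It was 6 of 32 genes raised at least 2-fold, 1 of 14 lowered at least 2-fold and 5 of 12 Wnt targets, and the Axin2 window had no match. Of the Wnt targets, Sp8, Tnfrsf19 and Lef1 matched at only some of their starts.

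The components that control beta-catenin differed little at the RNA level. Of 18 genes of the destruction complex and its regulators, 0 were higher and 3 lower, with a median of -0.04. Ctnnb1 was at 11.95, 11.91 and 11.89 in 2i and 12.01, 12.05 and 12.03 in PD03, which is -0.12 ± 0.03 (adjusted p = 0.0152). Gsk3b (-0.13 ± 0.04) and Tnks, a tankyrase that controls the level of Axin (-0.13 ± 0.04), had differences of the same size. All 3 calls were lost with median centring, with a limma adjusted p = 0.0979 for Ctnnb1, 0.0816 for Gsk3b and 0.0778 for Tnks, and each was also lost without single arrays. The highest adjusted p there was 0.064 for Ctnnb1, 0.0847 for Gsk3b and 0.0862 for Tnks.

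TCF/LEF factors and their partners were lower in 6 of 11 cases, 54.5% of the list against 9.44% of all genes, and 0 were higher (median -0.17). Tcf7l1, the main repressor of the family in ES cells, read 10.44, 10.45 and 10.49 in 2i and 10.96, 10.93 and 10.88 in PD03 and fell by 0.47 ± 0.04. Tcf7l2 fell by 0.38 ± 0.06. Tle3 and Tle4, corepressors of the Groucho family, were at -0.22 ± 0.06 and -0.19. The call of Tle3 was lost without PD03 replicate 2 (adjusted p = 0.0644).

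Of 31 Wnt ligands, receptors and secreted regulators 3 were higher (9.68%) and 4 lower (12.9%), close to the 10.1% and 9.44% of all genes, with a median of 0.02. Porcn, the acyltransferase that Wnt proteins need for secretion, read 9.84, 9.88 and 9.93 in 2i and 8.67, 8.68 and 8.60 in PD03 (1.24 ± 0.04, 2.36-fold). The Frizzled receptor gene Fzd10 rose by 0.76 ± 0.09 and the ligand gene Wnt5b by 0.41 ± 0.08. Other receptors fell: Fzd2 by 0.37 ± 0.06, Fzd7 by 0.35 ± 0.06 and Lgr4, a receptor of R-spondins, by 0.34 ± 0.04. Fzd5 was at -0.22 ± 0.06, with 2i arrays at 8.67, 8.87 and 8.92 and PD03 arrays at 9.08, 9.03 and 9.01. The canonical ligand genes Wnt3 and Wnt3a were at 0.09 and 0.06, not past the threshold (adjusted p = 0.577 and 0.642).

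**Figure D2:**
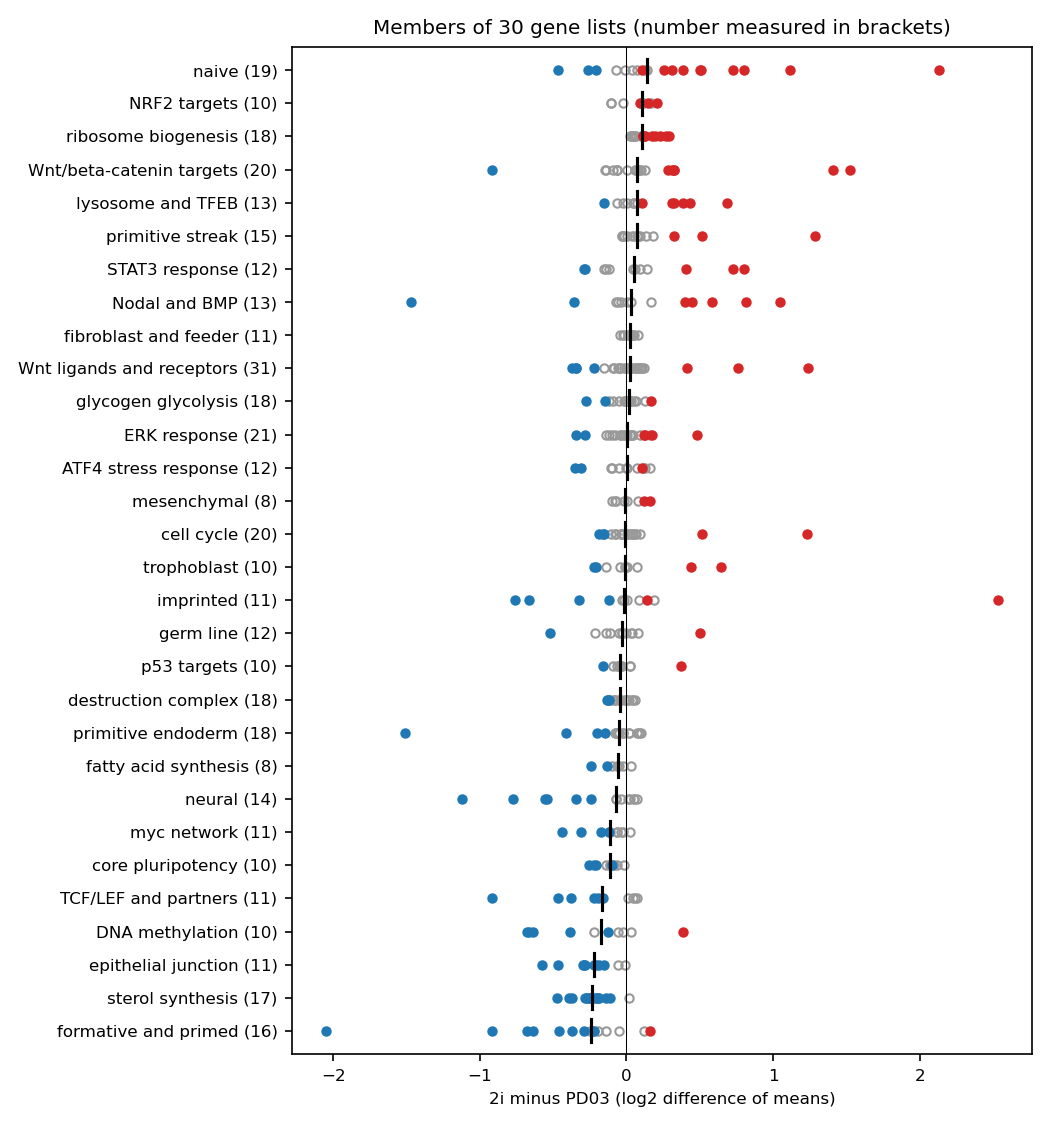
Log2 difference 2i minus PD03 (x axis) of each measured member of 30 gene lists (y axis, ordered by the list's median); filled red points are members higher and filled blue points members lower at an adjusted p under 0.05, open points did not pass, and black bars are medians. Members of sterol synthesis lie between -0.48 and 0.02, and those of ribosome biogenesis between 0.02 and 0.29.

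Of 19 genes of the naive state 10 rose (52.6%) and 3 fell (15.8%), against 10.1% and 9.44% of all genes, with a median of 0.14. Besides Spic, Tbx3, a T-box factor that sustains self-renewal, read 9.64, 9.72 and 9.67 in 2i and 8.48, 8.62 and 8.59 in PD03 and rose by 1.11 ± 0.07. Tfcp2l1, a transcription factor downstream of both LIF and GSK3 inhibition, read 11.36, 11.32 and 11.37 against 10.54, 10.60 and 10.51 (0.80 ± 0.05). Klf4 was at 8.42, 8.47 and 8.51 against 7.95, 7.57 and 7.71 (0.73 ± 0.09). No array of these 3 genes overlapped between the groups. The nuclear receptor gene Nr5a2 (0.51 ± 0.06), Tcl1, a co-activator of AKT (0.50 ± 0.07), and Prdm14, a repressor of DNA methyltransferase genes (0.39 ± 0.05), also rose. With LIF the means were higher again for Klf4 (9.91 in 2iLIF), Tfcp2l1 (12.08) and Tbx3 (10.34).

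Nanog did not pass, at 12.66, 12.69 and 12.72 in 2i and 12.56, 12.54 and 12.60 in PD03 (0.13 ± 0.04, adjusted p = 0.0623), and was called under 4 of 12 alternatives. Klf2 was at 0.11 ± 0.04 (adjusted p = 0.047), a call lost without each of the 6 arrays in turn (0.0579 to 0.178). The members that fell were Fgf4, the growth factor that feeds ERK signalling in ES cells (-0.47 ± 0.04), Fbxo15 (-0.26 ± 0.05) and Gbx2 (-0.21 ± 0.07). The call of Gbx2 was lost under 7 of 12 alternatives.

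The main core pluripotency factors did not pass. Pou5f1 (Oct4) read 12.51, 12.47 and 12.53 in 2i and 12.53, 12.50 and 12.52 in PD03, a difference of -0.02 ± 0.03 (adjusted p = 0.832). Sox2 was at -0.06 ± 0.04 (adjusted p = 0.398). Of 10 general pluripotency genes 0 were higher and 4 lower. Of these, Dppa4 (-0.25 ± 0.06) and Utf1 (-0.21 ± 0.04), both chromatin-associated, kept their call under all alternatives. Lin28a (-0.22) and Trim28 (-0.10) lost it, Lin28a without 4 of the 6 arrays (highest adjusted p = 0.0994) and Trim28 without any 1 of the 6 (highest 0.167). The count of lower members was 2 without 2i replicate 1, 2i replicate 2 or PD03 replicate 1, and 7 with an intensity trend.

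Of 16 formative and primed epiblast genes 8 fell (50%, against 9.44% of all genes) and 1 rose (6.25%, against 10.1%), with a median of -0.24. After Otx2 and Lef1 the largest decreases were in the de novo DNA methyltransferase genes. Dnmt3b read 10.57, 10.48 and 10.71 in 2i and 11.33, 11.20 and 11.28 in PD03 (-0.68 ± 0.06). Dnmt3a read 9.74, 9.69 and 9.79 against 10.37, 10.37 and 10.40 (-0.64 ± 0.05). Their cofactor Dnmt3l was at -0.67 ± 0.06, and the 5-methylcytosine oxidase gene Tet1 at -0.38 ± 0.04. All 4 were lower on every 2i array. The maintenance genes Dnmt1 (-0.06, adjusted p = 0.33) and Uhrf1 (-0.03, adjusted p = 0.735) did not pass. Of the whole DNA methylation list 5 of 10 were lower and Prdm14 was higher.

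Not every formative gene followed. Fgf5 read 7.48, 7.20 and 7.24 in 2i and 7.47, 7.48 and 7.56 in PD03 (-0.20 ± 0.14, adjusted p = 0.396), with overlapping arrays. Pou3f1 (-0.22 ± 0.10, adjusted p = 0.137) and Sox3 (-0.05) did not pass either. The 1 member called higher, N-cadherin (Cdh2), was at 0.16 ± 0.04, a call lost without PD03 replicate 1 (adjusted p = 0.0708).

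Of 21 ERK target genes 4 were higher (19%) and 2 lower (9.52%), against 10.1% and 9.44% of all genes, with a median of 0.00. Both groups held the MEK inhibitor. Dusp6, a phosphatase of ERK, read 9.23, 9.33 and 9.32 in 2i and 9.40, 9.32 and 9.30 in PD03 (-0.04 ± 0.06, adjusted p = 0.691). Dusp4 was at 0.03 ± 0.06 (adjusted p = 0.814) and Spry4 at 0.16 ± 0.09 (adjusted p = 0.287). The ETS factor gene Etv4 rose by 0.48 ± 0.08, and Dusp5 and Ier3 fell by 0.28 ± 0.04 and 0.34 ± 0.08. The other 3 calls, of Spred1, Etv5 and Il17rd at 0.18, 0.12 and 0.13, were lost under at least 3 of 12 alternatives each. The count of higher ERK targets was 1 without 2i replicate 1 or PD03 replicate 1, and 2 without 2i replicate 2, 2i replicate 3 or PD03 replicate 3. For Etv5 the mean over its probe sets was lower in 2i (-0.20).

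Of 12 genes of the LIF and STAT3 response 3 were higher, Tfcp2l1, Klf4 and the co-receptor gene Il6st (0.40 ± 0.05), and 2 lower, the LIF receptor gene Lifr (-0.29 ± 0.04) and Socs3. Socs3, a feedback inhibitor of STAT3, was at -0.28 ± 0.08 on the probe set used and at 0.14 on its other one, and its call was lost with their mean (adjusted p = 0.581). Without 2i replicate 2, 2i replicate 3 or PD03 replicate 2 it was lost too (highest adjusted p = 0.0808).

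Genes of Nodal and BMP signalling moved both ways, 5 of 13 higher (38.5%) and 2 lower (15.4%), against 10.1% and 9.44% of all genes. Lefty2, a secreted Nodal antagonist, read 9.36, 9.51 and 9.64 in 2i and 8.44, 8.39 and 8.55 in PD03 (1.05 ± 0.07, 2.07-fold). Nodal itself rose by 0.45 ± 0.04 and Bmp4 by 0.58 ± 0.08, the latter with arrays at 10.49 to 10.50 and 9.90 to 9.92. The ID family split, with Id3 (0.81 ± 0.10) and Id4 (0.40 ± 0.08) higher and Id2, described above, lower. Skil, a repressor of SMAD activity, fell by 0.36 ± 0.05. Lefty1, at 10.40, 10.48 and 10.54 against 10.21, 10.30 and 10.41, did not pass (0.16 ± 0.13, adjusted p = 0.468), and its arrays overlapped.

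Of 15 primitive streak genes 3 were higher and 0 lower. Nkx1-2, a homeobox gene of the posterior embryo, read 8.38, 8.34 and 8.56 in 2i and 7.14, 7.05 and 7.23 in PD03 (1.28 ± 0.06). Eomes, a T-box factor, rose by 0.51 ± 0.10. Mixl1, Gsc, Mesp1, Foxa2, Tbx6, Evx1 and 6 others did not pass, between -0.03 and 0.18.

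Of 14 neural genes 6 fell (42.9%, against 9.44% of all genes) and 0 rose. Pax6 read 6.96, 7.12 and 7.12 in 2i and 8.19, 8.22 and 8.16 in PD03, and the intermediate filament gene Nes read 7.51, 7.49 and 7.49 against 8.07, 8.03 and 8.06 (-0.56 ± 0.07). Ncam1, a cell adhesion molecule, fell by 0.54 ± 0.04, and Neurod1 by 0.78 ± 0.15 to a 2i mean of 5.23, near background. The mean of the 5 neural markers was 7.004 to 7.07 on 2i arrays and 7.38 to 7.51 on PD03 arrays, and the part of this shift in the other results was not tested. Sox1, at -0.24, lost its call under 5 of 12 alternatives. Outside the list, the neurofilament gene Nefl went the other way and rose by 1.15 ± 0.06. It was picked out after the values had been seen. Nefm, described with the interactions below, rose too. In bulk RNA, fewer cells of a type and less RNA per cell cannot be told apart.

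Of 18 endoderm genes 4 were lower, Lrp2, Sparc, an extracellular matrix protein (-0.41 ± 0.04), the laminin gene Lamc1 (-0.20 ± 0.04) and Cubn, and 0 were higher. Cubn was at -0.15 with both means under 6. Defining endoderm factors such as Gata6 (0.07) and Sox17 (-0.07) did not pass. Of 10 trophoblast genes Tfap2c, an AP-2 factor (0.65 ± 0.08), and Tead4 (0.44 ± 0.04) were higher, and the keratin genes Krt18 (-0.21 ± 0.05) and Krt8 (-0.22 ± 0.07) lower. The Krt8 call was lost under 7 of 12 alternatives, among them all arrays left out in turn but 2i replicate 2 (highest adjusted p = 0.154). Of 11 fibroblast and feeder genes 0 passed.

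Sterol synthesis was the list with the largest share of members called. Of 17 measured genes 16 fell (94.1%, against 9.44% of all genes) and 0 rose, with a median of -0.24. Hmgcs1, an early enzyme of the mevalonate pathway, read 11.37, 11.45 and 11.43 in 2i and 11.90, 11.85 and 11.94 in PD03 (-0.48 ± 0.04, adjusted p = 4.01e-07). Lss, lanosterol synthase, read 10.40, 10.50 and 10.56 against 10.90, 10.88 and 10.85 (-0.39 ± 0.06). Every 2i array of both genes was below every PD03 array. Pmvk fell by 0.37 ± 0.05 and the squalene epoxidase gene Sqle by 0.28 ± 0.04. The gene of SREBP2, the factor that drives this pathway (Srebf2), fell by 0.24 ± 0.04. Sc5d, the exception, was at 0.02. Of the 16 calls, that of Insig1 was lost under 8 of 12 alternatives and those of Mvd, Mvk and Nsdhl under 6 each, median centring among them. The call of Idi1 was lost with the mean of probe sets, and that of Fdps without 2i replicate 2. Of 8 fatty acid synthesis genes Srebf2 and Scd1 (-0.13) were lower, Scd1 not without PD03 replicate 1 or with median centring. Fasn, Acaca, Scd2, Acly, Elovl6 and Srebf1 lay between -0.10 and 0.03.

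Epithelial junction genes fell in 9 of 11 cases (81.8%, against 9.44% of all genes) and 0 rose, with a median of -0.22. The tight junction gene Cldn7 read 8.41, 8.31 and 8.28 in 2i and 8.85, 8.92 and 8.96 in PD03 (-0.58 ± 0.05). Epcam, an adhesion molecule, read 10.62, 10.52 and 10.59 against 11.02, 11.03 and 11.09 (-0.47 ± 0.04). Jup, the desmosomal relative of beta-catenin, fell by 0.30 ± 0.04 and the scaffold gene Tjp1 by 0.29 ± 0.04. E-cadherin (Cdh1), the binding partner of beta-catenin at the membrane, was at -0.06 (adjusted p = 0.271). Of 8 mesenchymal genes Cdh2 and Vim (0.12) were higher, both by little. The call of Vim was lost without 2i replicate 3 (adjusted p = 0.0699).

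Of 18 ribosome biogenesis genes 9 rose (50%, against 10.1% of all genes) and 0 fell, with a median of 0.10. The largest rises were those of Wdr12 (0.29 ± 0.04), which processes large-subunit rRNA with Pes1 (0.20 ± 0.04), and Nop2, an rRNA methyltransferase (0.27 ± 0.04). The second probe set of Wdr12 gave 0.39. Genes of the MYC network were lower in 4 of 11 cases. Mycn read 10.45, 10.49 and 10.58 in 2i and 10.94, 10.95 and 10.96 in PD03 (-0.44 ± 0.06), and Mxd4 fell by 0.31 ± 0.05. Mxd3 and Mga were at -0.17 and -0.12, calls lost under 5 and 6 of 12 alternatives. The count of lower members was 2 without 2i replicate 2, PD03 replicate 1 or PD03 replicate 3 and with median centring. Myc, a substrate of GSK3 at the protein level, was at -0.07 (adjusted p = 0.809), with overlapping arrays.

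Of 13 lysosomal genes 6 rose (46.2%, against 10.1% of all genes) and 1 fell (7.69%, against 9.44%). Hexa, a subunit of beta-hexosaminidase, read 9.20, 9.20 and 9.09 in 2i and 8.50, 8.43 and 8.49 in PD03 (0.69 ± 0.06). The cathepsin genes Ctsl and Ctsb rose by 0.43 ± 0.04 and 0.38 ± 0.04 and the membrane protein gene Lamp2 by 0.32 ± 0.06. Ctsc, outside the list, is of the same organelle. The factor gene Tfe3 was at -0.16, a call lost with median centring and without 2i replicate 2, 2i replicate 3, PD03 replicate 1 or PD03 replicate 2.

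Cyclin genes differed among themselves. Ccnd2 read 9.12, 9.23 and 9.61 in 2i and 8.06, 8.16 and 8.05 in PD03 (1.23 ± 0.11, 2.34-fold), and its kinase partner Cdk6 rose by 0.52 ± 0.04. Ccnd1 was at 0.07 ± 0.06 (adjusted p = 0.515) and Ccnd3 fell by 0.19 ± 0.04. Of the 20 cell cycle genes 2 were higher (10%) and 3 lower (15%), against 10.1% and 9.44% of all genes. None of the 6 Mcm genes of the replicative helicase passed.

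The remaining lists had few calls, to be set against 10.1% higher and 9.44% lower of all genes. The shares were 5.56% higher and 11.1% lower for glycogen and glycolysis, and 10% and 10% for p53 targets. They were 8.33% and 16.7% for the ATF4 list, 30% and 0% for NRF2, and 8.33% and 8.33% for germ line genes. Of 18 genes of glycogen and glycolysis, Gys1, the glycogen synthase that GSK3 phosphorylates, fell by 0.28 ± 0.04 and Slc2a1 by 0.15 ± 0.04, while Slc2a3 was at 0.16 ± 0.05. The Slc2a3 call was lost without any of the arrays but 2i replicate 3 (highest adjusted p = 0.0779). Of 10 p53 targets Pmaip1 rose by 0.37 ± 0.08 and Trp53inp1 was at -0.16. Of 12 genes of the ATF4 stress response Chac1 (-0.35 ± 0.06) and Ddit4 (-0.31 ± 0.05) fell and Asns was at 0.11. Of 10 NRF2 genes 3 were higher, led by Keap1 (0.21 ± 0.04), and 1 without 2i replicate 1, 2i replicate 2 or PD03 replicate 2. Of 12 germ line genes Dazl rose by 0.50 ± 0.08 and Mael fell by 0.52 ± 0.10. The call of Trp53inp1 was lost without 2i replicate 3 or any PD03 array (highest adjusted p = 0.133), and that of Asns without 2i replicate 1, PD03 replicate 1 or PD03 replicate 2 (highest 0.0747).

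Of 11 imprinted genes Plagl1 and Grb10 (0.14) were higher and 4 lower, the call of Grb10 being lost without 2i replicate 2 or PD03 replicate 3. Peg3, a paternally expressed zinc finger gene, read 10.97, 10.97 and 10.95 in 2i and 11.72, 11.73 and 11.72 in PD03 (-0.76 ± 0.03). Cdkn1c, an inhibitor of cyclin-dependent kinases, fell by 0.32 ± 0.07. Meg3, a maternally expressed long noncoding RNA, read 10.39, 10.36 and 10.38 against 11.03, 11.09 and 11.02 (-0.67 ± 0.05). Its locus was looked at further after these values had been seen.

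Meg3 lies in the imprinted cluster between the protein-coding genes Dlk1 and Dio3, where noncoding RNAs and a large number of miRNAs are transcribed from the maternal chromosome. Between these genes in the RefSeq order, 45 genes were measured. All 45 had a negative difference, 33 fell and 0 rose (9.44% of all genes fell), with a median of -0.29. Rian, another long noncoding RNA of the cluster, read 8.16, 8.34 and 8.16 in 2i and 9.01, 9.05 and 9.01 in PD03 (-0.80 ± 0.07). Mir377 read 8.26, 8.33 and 8.39 against 9.33, 9.25 and 9.32 (-0.97 ± 0.07), and Mir300 read 6.91, 6.90 and 7.16 against 8.08, 7.78 and 8.02 (-0.97 ± 0.10). No array of these genes overlapped between the groups. Of the 40 miRNA genes 28 fell, and of the other 5 genes all 5, including Rtl1 (-0.25 ± 0.05). The flanking genes did not pass: Dlk1 was at 0.00 ± 0.07 (adjusted p = 0.998) and Dio3 at -0.04 ± 0.07 (adjusted p = 0.816).

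Many of these genes lie in shared long transcripts, so they are not independent of each other. Both group means, of 2i and of PD03, were under 6 in 12 of them. The filter for a mean of at least 6 over all arrays kept 29 of the 45, of which 23 were lower. Leaving out each array in turn gave 26 to 31 lower genes, and without 2i replicate 2, as with median centring, 44 of 45 differences were negative. The probe sets read RNA of the gene and not the mature miRNA. The mature forms of 4 of the most lowered genes, from RefSeq, are shown with the seed (bases 2 to 8) in capitals, since the seeds, which select target RNAs, differ from each other:
miR-377-3p: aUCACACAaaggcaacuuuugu
miR-300-3p: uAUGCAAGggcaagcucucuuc
miR-382-5p: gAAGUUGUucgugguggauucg
miR-134-5p: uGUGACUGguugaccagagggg
Mir382 fell by 0.73 ± 0.06 and Mir134 by 0.64 ± 0.06. In CHIR minus DMSO, from arrays that the comparison does not use, 36 of the 45 were lower and 0 higher, with a median of -0.46. Over all genes 10.8% were lower and 10% higher in CHIR minus DMSO. None of the 45 passed the test of the interaction or of LIF added to 2i.

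**Figure D3:**
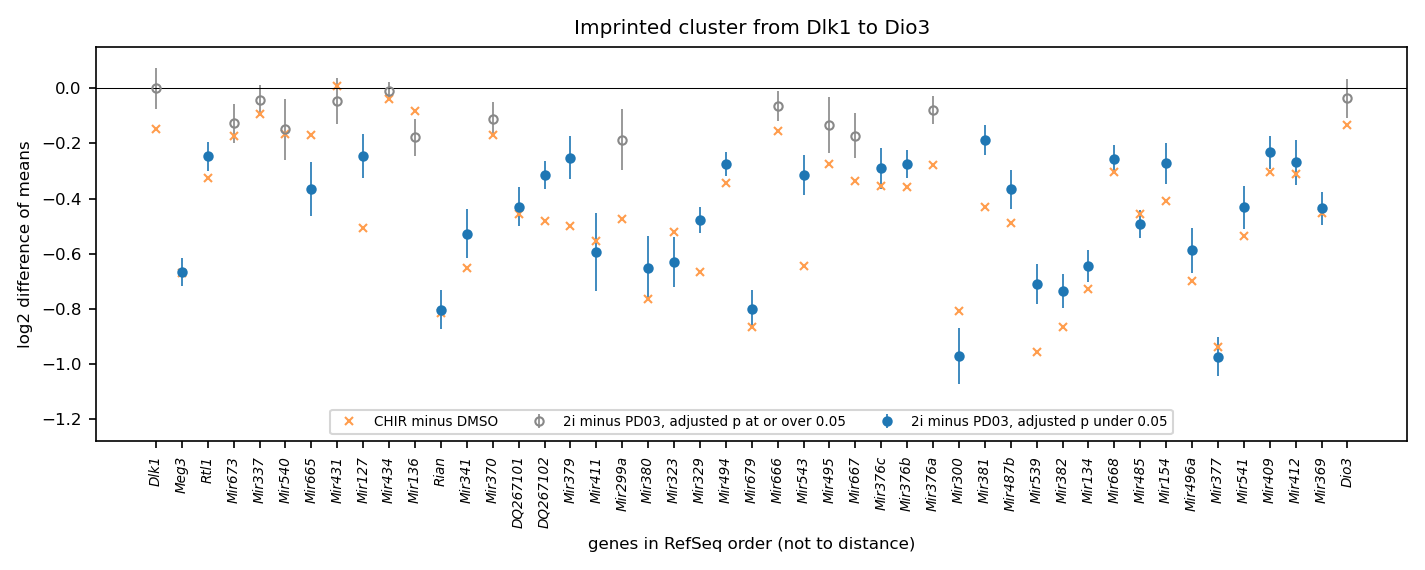
Log2 differences (y axis) of Dlk1, Dio3 and the 45 measured genes between them, in RefSeq order and not to distance (x axis); circles are 2i minus PD03 with the standard error, filled where the adjusted p is under 0.05, and crosses are CHIR minus DMSO. Dlk1 and Dio3 at the ends lie at 0.00 and -0.04, and the genes between them from -0.97 to -0.01.

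Of the 256 miRNA genes measured elsewhere, 15 were higher and 1, Mir200b (-0.33), lower, shares below the 10.1% and 9.44% of all genes. The higher ones included members of the miR-302 cluster, which is known from primed pluripotent cells, and of the related clusters of miR-17 and miR-106a, chosen for mention after their values had been seen. Mir302c read 5.53, 5.60 and 5.83 in 2i and 5.23, 4.92 and 5.02 in PD03 (0.60 ± 0.14), Mir302d rose by 0.59 ± 0.13, and Mir302b was at 0.69 ± 0.19. Mir106a rose by 0.45 ± 0.10, and Mir20a was at 0.33 ± 0.10. Of 5 measured genes of each cluster, 4 of that of miR-302 (not Mir302a, at 0.38), 3 of that of miR-106a (not Mir20b and Mir92-2, at 0.25 and 0.15) and 1 of that of miR-17 passed. Mir17, Mir18, Mir19a and Mir19b-1 lay between 0.06 and 0.22 and did not pass. The arrays of the called members did not overlap, while those of Mir19a and of Mir19b-1 did. Most values of the called members lie around or below 6, near background. Mir20a (means 7.32 in 2i and 6.99 in PD03) and Mir363 (8.25 and 7.76) read higher. The call of Mir302b was lost without 2i replicate 3, PD03 replicate 2 or PD03 replicate 3, and that of Mir20a without 2i replicate 2, PD03 replicate 1 or PD03 replicate 2. Their mature forms are shown because miR-302b and miR-302d share a seed, as do miR-106a and miR-20a:
miR-302b-3p: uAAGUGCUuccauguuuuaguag
miR-302d-3p: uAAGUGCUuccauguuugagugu
miR-106a-5p: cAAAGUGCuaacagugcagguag
miR-20a-5p: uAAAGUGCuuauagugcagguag

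Whether CHIR99021 acts alike without PD0325901 was asked by setting 2i minus PD03 beside CHIR minus DMSO, which share no array. In CHIR minus DMSO 4144 genes passed (20.8%), 1998 higher (10%) and 2146 lower (10.8%), or 2623 and 1548 with median centring. At 2-fold or more 92 genes passed (0.461%). The differences, over genes and so not over independent samples, had Pearson's r = 0.777 and Spearman's rho = 0.602. Of the genes called, 2403 were called in both in the same direction, 61.8% of those in 2i minus PD03 and 58% of those in CHIR minus DMSO, and 34 in opposite directions. Of the genes called at 2-fold or more with PD0325901, 43 of the 44 higher and 18 of the 19 lower ones were also called, in the same direction, without it. Axin2 differed by 1.53 with and 1.45 without PD0325901, Otx2 by -2.05 and -1.94, and Plagl1 by 2.54 and 2.71. For these 3 genes the interaction did not pass (adjusted p = 0.871, 0.715 and 0.73).

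**Figure D4:**
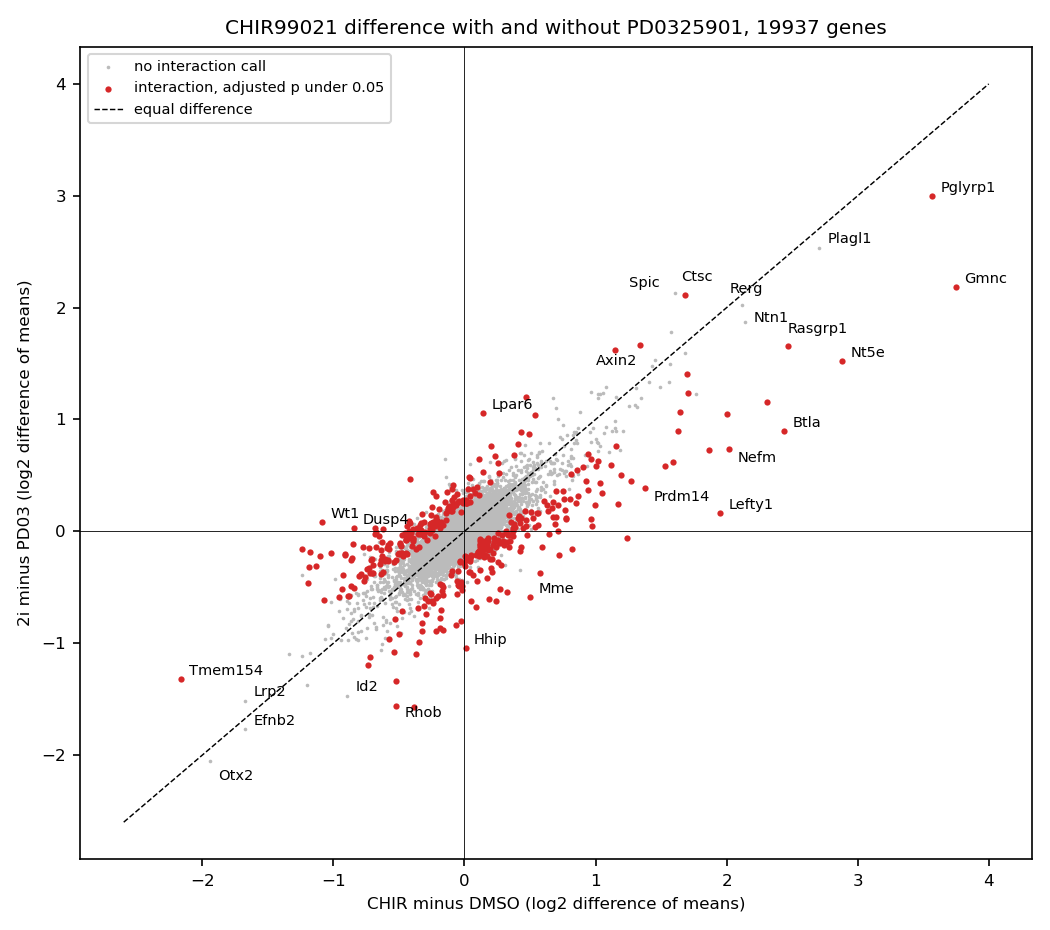
Log2 difference 2i minus PD03 (y axis) against CHIR minus DMSO (x axis) for 19937 genes; red points have an interaction with an adjusted p under 0.05, and the dashed line marks equal differences. Plagl1 lies near the line at 2.71 and 2.54, Gmnc below it at 3.75 and 2.19, and Rhob below it at -0.52 and -1.56.

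The interaction itself, (2i minus PD03) minus (CHIR minus DMSO), passed for 406 genes (2.04%), 186 positive (0.933%) and 220 negative (1.1%), or 115 and 208 with median centring. Of them, 14 (0.0702%) reached 2-fold. The count was 255 without PD03 replicate 3 and 269 without PD03 replicate 1, against 406 with all arrays. Of the 406 genes, 103 were called in the same direction in both comparisons with a smaller difference in the presence of PD0325901, and 46 with a larger one. A further 138 were called without PD0325901 alone, 85 with it alone, and 34 in opposite directions.

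Lefty1 had the most negative interaction (-1.79 ± 0.18, adjusted p = 5.61e-05). Its means were 6.41 in DMSO and 8.36 in CHIR, a rise of 1.95 ± 0.13, and 10.31 in PD03 and 10.47 in 2i. Its difference with PD0325901 present did not pass. Gmnc (-1.56), Btla, an inhibitory receptor of lymphocytes (-1.54), and Nt5e, an ecto-nucleotidase (-1.36), rose in both settings, but by less with PD0325901. Nt5e read 7.92, 8.02 and 8.17 in 2i and 6.39, 6.63 and 6.51 in PD03 (1.52 ± 0.08), against 2.88 ± 0.08 in CHIR minus DMSO. Gprc5a, an orphan receptor, was at -0.06 with and at 1.24 without PD0325901 (interaction -1.30 ± 0.20), and its PD03 and 2i means, 10.66 and 10.60, were both above the CHIR mean of 9.97. Nefm, a neurofilament subunit, rose by 0.73 with and 2.02 without it (interaction -1.29 ± 0.10).

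Among naive genes 5 of 19 had a negative interaction (26.3%, against 1.1% of all genes) and 0 a positive one (0.933% of all genes). Prdm14 rose by 0.39 ± 0.05 with and 1.38 ± 0.05 without PD0325901 (interaction -0.99 ± 0.07, adjusted p = 1.78e-06). Klf2 was at 0.11 and 0.96 (interaction -0.85 ± 0.05) and Nanog at 0.13 and 0.70 (-0.57 ± 0.06). For these 3 genes the PD03 mean stood above the DMSO mean, at 8.97 against 7.06, 9.93 against 8.73 and 12.56 against 11.74. Lefty2 rose by 1.05 with and 2.00 without PD0325901 (interaction -0.95 ± 0.10), and its PD03 mean was 8.46 against 5.56 in DMSO. Porcn (-0.47 ± 0.06) and Lef1 (-0.42 ± 0.08) also had negative interactions.

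The most positive interactions were mostly in genes that passed as lower without PD0325901 and did not pass with it. Wt1, the Wilms tumour transcription factor, was at -1.09 ± 0.11 without PD0325901 and 0.08 ± 0.11 with it (interaction 1.17 ± 0.16). The cytokine gene Il10 (interaction 1.08 ± 0.18), the membrane glycoprotein gene Gpm6a (0.89 ± 0.11) and the ERK phosphatase gene Dusp4 (0.87 ± 0.08) had the same pattern of calls. With PD0325901 Gpm6a was at -0.22 (adjusted p = 0.0517) and passed under 4 of 12 alternatives, and Il10 was at -0.16 and passed with only the compared arrays (adjusted p = 0.0128). Il10 had a mean above 6 in DMSO only. Dusp4 and Dusp6 (interaction 0.60 ± 0.08) had DMSO means of 9.28 and 11.06 and PD03 means of 7.11 and 9.34. Lpar6, a receptor of lysophosphatidic acid, was the reverse case: it read 9.65, 9.80 and 9.66 in 2i and 8.70, 8.56 and 8.66 in PD03 (1.06 ± 0.07), against 0.14 ± 0.07 without PD0325901 (interaction 0.92 ± 0.10). Sema6a, a semaphorin, had an interaction of 0.89 ± 0.22 (adjusted p = 0.0498) that was lost without 10 of 12 arrays left out in turn (highest adjusted p = 0.134).

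Some of the largest decreases in 2i minus PD03 were larger with PD0325901 than without it. These genes were chosen for a low 2i minus PD03 difference, which is also part of the interaction. The choice favours such a result and a high PD03 mean, so the values are a description. Rhob was at -1.56 with and -0.52 without it (interaction -1.04 ± 0.10), Pde1b at -1.34 and -0.52 (-0.82 ± 0.10), Prmt8 at -1.10 and -0.37 (-0.73 ± 0.10), Phf19 at -1.19 and -0.74 (-0.45 ± 0.07) and Pax6 at -1.12 and -0.72 (-0.40 ± 0.07). The PD03 mean was above the DMSO mean in all 5. Tmem154 went the other way, at -1.32 and -2.17 (0.85 ± 0.11).

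**Figure D5:**
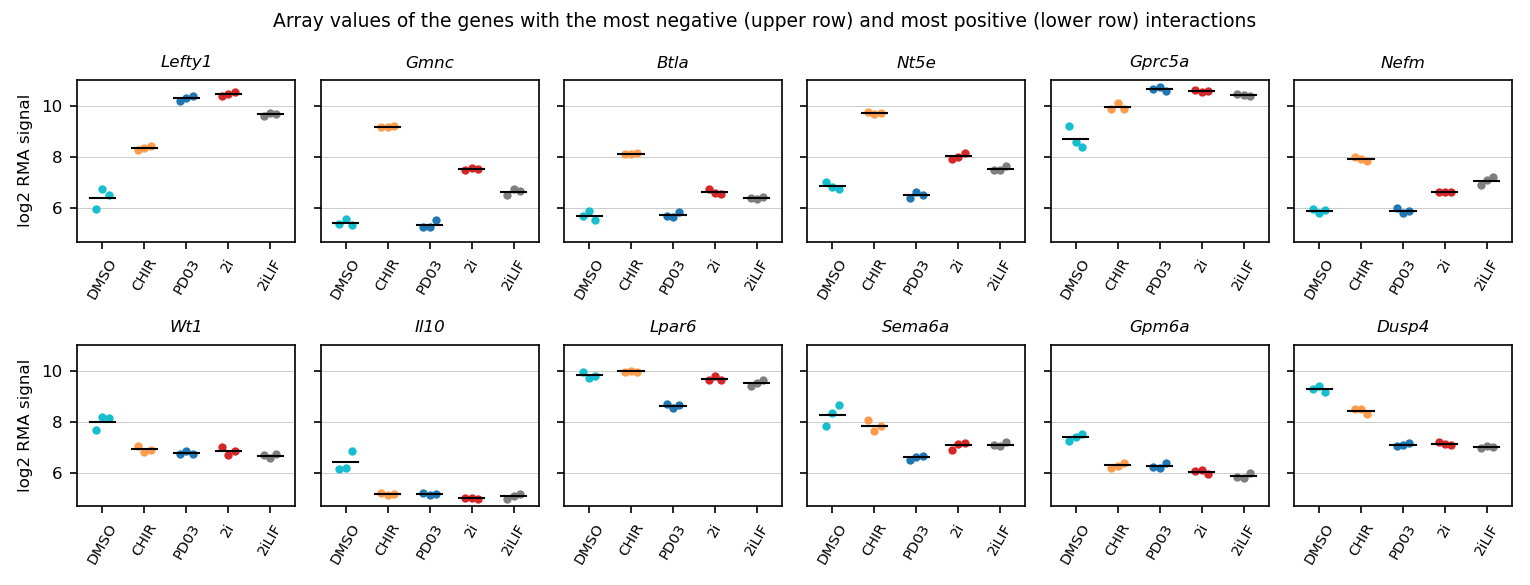
Array values (log2 RMA signal, y axis) in DMSO, CHIR, PD03, 2i and 2iLIF (x axis) of the 6 genes with the most negative (upper row) and the 6 with the most positive (lower row) interactions; points are the 3 arrays of a group and bars their mean. The means of Lefty1 are 6.41 in DMSO, 8.36 in CHIR, 10.31 in PD03 and 10.47 in 2i, and those of Lpar6 are 9.83, 9.97, 8.64 and 9.70.

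In 34 genes CHIR99021 went with a call in opposite directions. All 34 passed the test of the interaction, but the interaction is the difference of the 2 comparisons, so their selection by opposite calls all but ensured this. The 2i minus PD03 call held under all alternatives for 14 of the 34 genes. It held for 19 without 2i replicate 3, 21 without PD03 replicate 2, 20 without PD03 replicate 3 and 20 with median centring, and for 23 or 24 without each other array. Of the 34 genes, 28 were lower with PD0325901 and higher without it. The 6 genes named next are among the 14. Their CHIR minus DMSO calls were not examined under the alternatives. Mme, the membrane peptidase neprilysin, read 8.99, 9.19 and 9.07 in 2i and 9.75, 9.63 and 9.63 in PD03 (-0.59 ± 0.11), and was at 0.50 in CHIR minus DMSO. Its group means were 7.62 in DMSO, 8.12 in CHIR, 9.08 in 2i and 9.67 in PD03. Ncam1 was at -0.54 and 0.33, the desmosomal gene Dsp at -0.52 and 0.27, and the corepressor gene Runx1t1 at -0.61 and 0.18. The other 6 were higher with PD0325901 and lower without it. They include the phospholipase gene Plcg2 (0.35 and -0.24) and Zfp36l2, a protein that destabilises mRNAs (0.35 and -0.13). The limma adjusted p of CHIR minus DMSO was 0.0414 for Dsp, 0.0352 for Zfp36l2 and 0.0335 for Runx1t1, near the threshold. It was 0.00366 for Plcg2, 0.00316 for Mme and 4.39e-05 for Ncam1.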

How the data were processed

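RNA of 15 samples was measured on Affymetrix arrays, 1 array a sample. The deposited values are log2 signals that the authors normalized by RMA, per the submitters' processing notes; no version or build is given in the sources used here. Only the value table was used, with 34760 probe sets, of which 21640 carry 1 gene symbol in the platform annotation, 1321 several and 11799 none. Each of the 19937 genes is represented by its brightest probe set by mean over all 15 arrays, a choice that concerned 954 genes. Groups follow the sample titles.

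A linear model with 5 groups was fitted with limma 3.58.1 in R 4.3.3 (lmFit and eBayes, 10 residual degrees of freedom), two-sided, with Benjamini-Hochberg adjustment over all genes, a threshold of 0.05 and no minimum fold. Contrasts were 2i minus PD03, CHIR minus DMSO, their difference (the interaction) and 2iLIF minus 2i. A ± is a standard error. The number of arrays limits the precision. On simulated data with 19937 genes, 2i minus PD03 recovered 97 of 100 genes changed by 0.5 (log2) and 100 of 100 changed by 1, and called 11 unchanged genes. The simulation had independent normal noise and few changed genes. Most calls in the data were smaller than 0.5, a size that it did not test.

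Genes were named by rule: the 12 highest and 12 lowest called changes without overlap of arrays and without predicted genes, up to 4 called members of each of 30 lists, the 6 highest and 6 lowest interactions, and a short list (Ctnnb1, Axin2, Dusp6, Socs3, Nanog, Klf2, Klf4, Tfcp2l1, Pou5f1, Sox2, Fgf5 and Otx2) whatever its result. Other list members, the genes with opposite calls, the Dlk1 to Dio3 cluster and other miRNA genes were named after their values had been seen. The members and lists were chosen with earlier results of these data known. Of 427 list symbols 407 were measured. The result of 1 list member is not reported here by name. Motifs, gene order and sequences are from RefSeq tables of GRCm38.p6, and all 44 called miRNA genes were matched there by symbol.

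Alternatives were only the compared arrays, the replicate number as a block, a mean of at least 6, the mean of probe sets, median centring, an intensity trend, a minimum of 2-fold and leaving out each array.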

Additional observations from a re-analysis of the deposited data

Results flagged for a closer look

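The effect of CHIR99021 differed with and without PD0325901, by limma's test of the interaction, in 406 genes. The values that follow are the interactions of genes chosen by rule (2i minus PD03 minus the difference CHIR minus DMSO, log2, 3 arrays a group). Causes were not tested.

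Among the genes most changed in 2i minus PD03, the interaction was negative for Pglyrp1 (-0.57), Gmnc (-1.56), Rasgrp1 (-0.81), Rhob (-1.04), Pde1b (-0.82), Phf19 (-0.45), Pax6 (-0.40) and Prmt8 (-0.73). It was positive for Ctsc (0.43), Trh (0.33), Epp13 (0.47) and Tmem154 (0.85). The most positive interactions of all were those of Wt1 (1.17), Il10 (1.08), Lpar6 (0.92), Sema6a (0.89), Gpm6a (0.89) and Dusp4 (0.87). The most negative were those of Lefty1 (-1.79), Gmnc, Btla (-1.54), Nt5e (-1.36), Gprc5a (-1.30) and Nefm (-1.29).

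Of Wnt pathway genes, Tnfrsf19 (-0.29), Lef1 (-0.42), Tle3 (-0.39) and Porcn (-0.47) had a negative interaction and Fzd2 (0.35) a positive one. Of members of the other lists, Lefty2 (-0.95), Ncam1 (-0.87), Dnmt3l (-0.36), Prdm14 (-0.99), Nanog (-0.57), Klf2 (-0.85) and Vim (-0.28) were negative. Krt18 (0.70), Fgf5 (0.82), Dusp6 (0.60), Rrp9 (0.33), Cdk6 (0.25) and Cldn7 (0.32) were positive.

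The calls of 12 of these interactions were lost without single arrays. With each of 12 arrays left out in turn, the call was lost in 11 cases for Pglyrp1 (highest adjusted p = 0.118), 10 for Ctsc (0.129), Fgf5 (0.113), Fzd2 (0.0828), Rrp9 (0.132) and Sema6a (0.134), and 9 for Dnmt3l (0.0897). It was lost in 7 cases for Cldn7 (0.0784), 6 for Trh (0.08), 5 for Tnfrsf19 (0.0695), 4 for Cdk6 (0.0575) and 2 for Tle3 (0.0556).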

How the results depend on the processing

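The count of genes in 2i minus PD03 was 3756 to 4201 under other settings of the fit and 3099 to 3297 with 1 array left out, against 3891. The interaction count, 406 with all arrays, was 255 to 437 with 1 array left out, 269 of them without PD03 replicate 1 and 255 without PD03 replicate 3. CHIR minus DMSO gave 3210 to 3985 with 1 array left out, against 4144. A minimum of 2-fold left 63 genes in 2i minus PD03, 14 in the interaction and 92 in CHIR minus DMSO. Median centring changed the splits of higher and lower calls as given above. Of 1593 alternative values of the genes chosen by rule, 1488 kept their call and direction, 96 lost the call, 9 gained it and 0 changed sign. Of 431 other list members and genes named, 4777 alternative values kept their call and direction, 256 lost the call, 84 gained it and 1 reversed. That one was Etv5, at 0.12 on the probe set used and -0.20 with the mean of probe sets (adjusted p = 0.0024). Of 720 alternative counts over the lists, 652 stayed within 1.5 times and 68 moved. Same-numbered 2i and PD03 arrays did not deviate together: their deviations from the group means correlated at -0.231 to -0.139 over 3 pairs, against 0.0601 to 0.169 over 6 pairs of other numbers. The numbers were therefore not taken to pair the samples. With the replicate number as a block the counts were 3756 in 2i minus PD03, 352 in the interaction and 4007 in CHIR minus DMSO. Array signals near 6 and below leave little range over background, which limits what can be said of genes such as Gmnc, Sp8 and Mir302b.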

Other observations

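Groups of genes that share a symbol stem were looked at after the values had been seen, so their counts describe these arrays and support nothing further. Genes of mitochondrial ribosomal proteins were mostly higher in 2i than in PD03 where they passed: 20 of 48 with the stem Mrpl were higher and 0 lower (median 0.135), and 12 of 29 with the stem Mrps were higher and 1 lower (median 0.141). Of 17 tRNA methyltransferase genes with the stem Trmt, 11 were higher and 0 lower (median 0.201). Of 20 H/ACA small nucleolar RNA genes (Snora), which guide pseudouridylation of rRNA, 11 were higher and 0 lower (median 0.223). Of 14 genes of complex I of the respiratory chain with the stem Ndufa, 7 were higher and 0 lower.

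Other groups stood on the other side. Of 7 insulin-like growth factor binding protein genes (Igfbp) 4 were lower and 0 higher, and of 18 lysine demethylase genes (Kdm) 9 were lower and 2 higher. Over all genes the median was 0.00895, with 10.1% higher and 9.44% lower.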
